A study of Homo sapiens with 6 samples.

Results

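The kinesins of LNCaP-AI cells were examined after knockdown of the lncRNA PCAT1. Kinesin genes were taken as all genes of the deposited transcript table whose symbol is KIF followed by a number and an optional letter A, B or C, or KIFC followed by a digit. This gave 31 of the 11848 genes listed, with 63 of the 29091 transcripts. They were divided by known role into 12 mitotic kinesins, 12 transport kinesins and 7 kinesins of the cilium, the centriole or the microtubule end. CENPE, a kinesin of the kinetochore, has another kind of symbol and was counted among the partners. LNCaP-AI descends from LNCaP, a human prostate cancer line, and no longer needs androgen for growth after prolonged androgen withdrawal. RNA-seq was performed on 3 samples that had received a shRNA against PCAT1 (shPCAT1) and 3 samples that had received a scramble shRNA (shSCR), and both groups were the same androgen-deprived line. The table listed FPKM values, in which the fragments of a transcript are divided by its length and by the size of the library. The labels did not say that the 3 samples of a group came from separate cultures, so a p-value here reflects no more than how far these libraries scatter, and that scatter could be technical.

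Kinesins are motor proteins that hydrolyze ATP to move along microtubules or to take their ends apart. Mitotic kinesins are made mostly by dividing cells, where they separate the spindle poles, position chromosomes and build the midzone at which the daughter cells are cut apart. Transport kinesins carry vesicles, organelles and ciliary cargo in cells at any stage of the cycle, and several of them are best known from neurons.

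All 12 prostate epithelial markers in the list were found, with KLK3 at a mean of 475 FPKM and FOLH1 at 365 FPKM in shSCR cells. Of the 9 markers of other cell types, PTPRC, COL3A1, PECAM1 and TP63 were not among the listed genes, and VWF, KRT5 and KRT14 had means of at most 1.64 FPKM in either group. CD68 was at 12.4 and COL1A1 at 8.35 FPKM in shSCR cells. The level of PCAT1 was not analysed here, and the knockdown was not checked in these values. Summed FPKM per sample ran from 263353 to 303477, and the sequencing depth behind the values is unknown. One library stood apart: shSCR replicate 3 correlated with the other samples at r = 0.809 to 0.845 across genes, when compared with 0.91 to 0.946 among the other 5. In that library 16 of the 63 kinesin transcripts (25.4%) were listed at 0, and 16.9% of all transcripts were. In the other 5 libraries 2 to 4 kinesin transcripts were listed at 0. Values without shSCR replicate 3 are given beside those with all samples where they bear on a result.

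The promoters of kinesin genes are shown first, because their letters are read without the RNA values. The mitotic and transport classes set side by side were, however, chosen with earlier results of these data known. The letters TTTGAA form the core of the cell cycle genes homology region, an element of many promoters that are active late in the cell cycle, and CCAAT is the box bound by the factor NF-Y. In RefSeq promoter windows (GRCh38.p14, from 250 bases before to 50 bases after an annotated start), 28 of the 31 kinesin genes had an entry, and KIF13B, KIF27 and KIFC2 had none. Both strands were searched, and sites of the 2 motifs can share only an end letter. TTTGAA was found in 9 of 12 mitotic genes (75%), in 1 of 10 transport genes (KIF5B) and in 0 of the 6 other kinesins, beside 15.2% of all 35116 windows and 13% of the fitted genes with an entry. CCAAT was present in 10 of 12 mitotic genes (83.3%) and in 4 of 10 transport genes (40%), beside 34.6% of all windows and 44% of those fitted genes. Both motifs occurred together in 8 of the 12 mitotic genes (66.7%) and in 5.9% of all windows and 7.3% of those fitted genes. A match is a description of letters and does not show a bound site. The stretch from 90 bases before to 30 bases after the start is printed for the 4 mitotic genes KIF20B, KIF14, KIF11 and KIF18B and, for comparison, for the transport genes KIF1A and KIF5B. Capitals mark TTTGAA or its reverse complement TTCAAA, and CCAAT or its reverse complement ATTGG, each sequence being read on the strand of its gene:
KIF20B (chr10:89701500-89701619, plus strand): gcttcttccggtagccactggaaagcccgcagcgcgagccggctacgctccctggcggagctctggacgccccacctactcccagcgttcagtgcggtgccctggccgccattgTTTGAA
KIF14 (chr1:200620722-200620841, minus strand): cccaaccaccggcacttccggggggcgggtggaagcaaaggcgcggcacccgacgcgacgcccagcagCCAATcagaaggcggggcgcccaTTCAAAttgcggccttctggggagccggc
KIF11 (chr10:92593040-92593159, plus strand): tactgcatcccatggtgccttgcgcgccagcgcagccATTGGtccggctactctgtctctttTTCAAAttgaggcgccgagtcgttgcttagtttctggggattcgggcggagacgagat
KIF18B (chr17:44947744-44947863, minus strand): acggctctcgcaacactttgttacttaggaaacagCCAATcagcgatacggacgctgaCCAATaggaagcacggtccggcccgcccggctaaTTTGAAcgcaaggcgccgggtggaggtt
KIF1A (chr2:240821374-240821493, minus strand): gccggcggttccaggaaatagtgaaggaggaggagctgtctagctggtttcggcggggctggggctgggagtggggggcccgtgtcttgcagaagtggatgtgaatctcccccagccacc
KIF5B (chr10:32056396-32056515, minus strand): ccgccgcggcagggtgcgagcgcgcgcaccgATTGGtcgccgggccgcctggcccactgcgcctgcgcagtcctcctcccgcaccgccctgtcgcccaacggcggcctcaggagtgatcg

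In KIF14 and KIF11 a CCAAT box lay upstream of the TTCAAA motif, and KIF18B had a pair of CCAAT boxes upstream of TTTGAA. In KIF20B a pair of TTTGAA matches stood downstream of the start, the later one past the printed stretch, and its CCAAT boxes lay further upstream than the printed stretch. KIF1A had neither motif in any of its windows. The single TTTGAA match of KIF5B lay outside the printed stretch, at position -140 from the start.

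Taken over the whole class, mitotic kinesins leaned to higher values in shPCAT1 cells and transport kinesins did not. The median log2 change (shPCAT1 minus shSCR, on log2(FPKM + 1)) was 0.44 over the 12 mitotic genes, with 11 of 12 above 0, and -0.28 over the 12 transport genes, with 5 above 0 and 7 below. It was 0.39 over the 6 other kinesins that could be fitted and -0.05 over all 10825 genes fitted, those whose mean over the 6 samples reached 1 FPKM. Of the 31 kinesin genes, 30 passed that filter. The difference between the mitotic and the transport median was 0.72 on the log2 scale. Computed for each sample against the shSCR means, it was 0.27, -0.13 and -0.35 in shSCR cells and 0.79, 0.81 and 0.58 in shPCAT1 cells, with a pooled SD of 0.24. The groups did not overlap on this measure. Without shSCR replicate 3 the medians were 0.38 for mitotic genes, -0.10 for transport genes, 0.34 for the other kinesins and -0.01 for all genes. No test was applied to these medians, since members of a class are not replicates. In bulk RNA, a change in the share of dividing cells and a change in RNA per cell cannot be told apart.

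**Figure D1:**
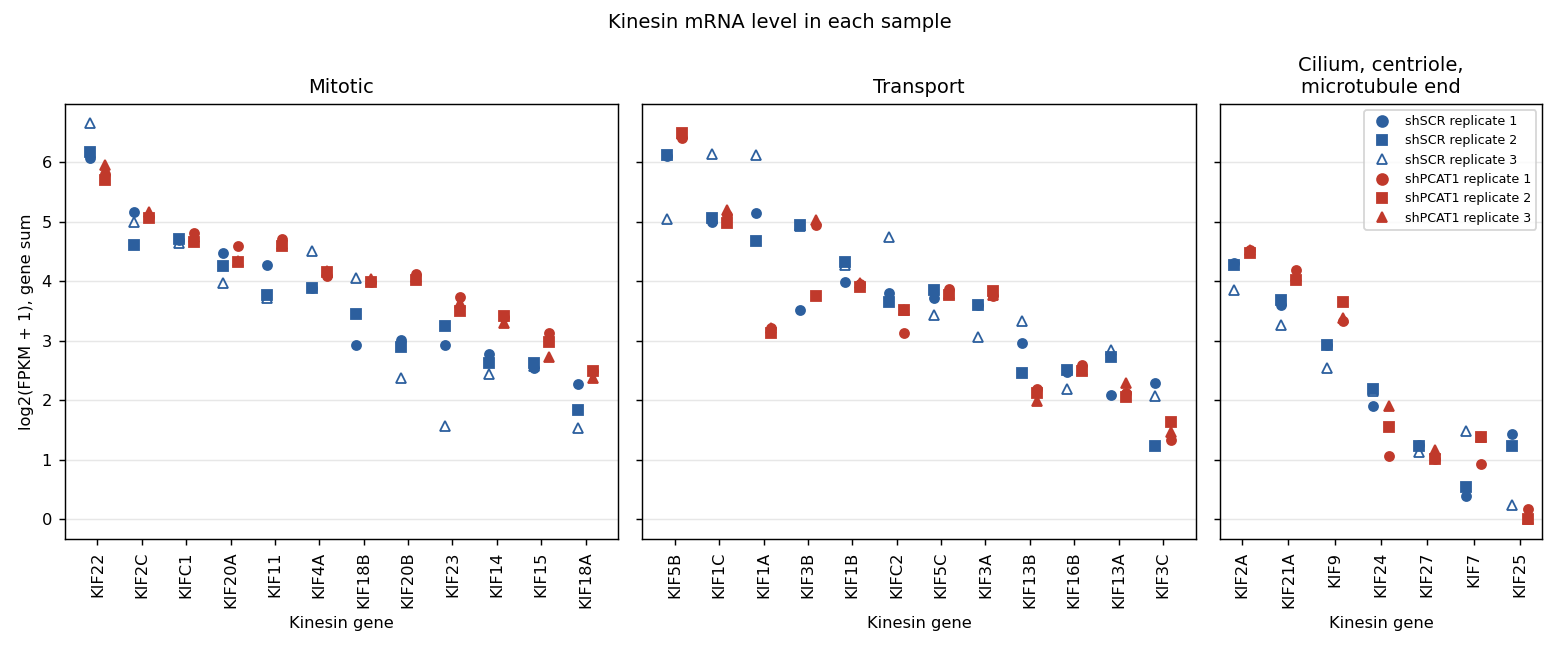
Level of each kinesin gene, as log2(FPKM + 1) of the summed transcripts, in the 3 shSCR samples (blue) and the 3 shPCAT1 samples (red), with replicates as circles, squares and triangles and genes ordered by level within each class. The open triangle, shSCR replicate 3, lies away from the other shSCR samples in many genes, and KIF1A shows the widest gap between the groups.

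With limma and Benjamini-Hochberg adjustment over all genes fitted, 0 of the 30 kinesin genes reached an adjusted p of 0.05 and were called. At this threshold 0.333% of all genes were higher and 0.545% were lower in shPCAT1 cells. At an unadjusted p of at most 0.05, 6 kinesins were higher (KIF11, KIF14, KIF18A, KIF20B, KIF21A and KIF9) and 3 were lower (KIF13B, KIF1A and KIF22). The share of all genes at this unadjusted threshold was not computed, so these counts cannot be set against it. With shSCR replicate 3 left out, 3 of 30 kinesins were called higher (KIF14, KIF20B and KIF5B, 10%), beside 3.63% of all genes, and 1 was called lower (KIF1A, 3.33%), beside 4.4% of all genes. The study's thresholds (at least 1.5-fold, unadjusted p up to 0.05) were taken on the same limma fit, so the fold is on FPKM + 1 and not on FPKM. They were met by 4 higher kinesins (KIF11, KIF14, KIF20B and KIF9, 13.3%), beside 4.65% of all genes, and by 2 lower kinesins (KIF13B and KIF1A, 6.67%), beside 7.75% of all genes. KIF18A and KIF21A, with ratios of mean FPKM of 1.62 and 1.54, did not reach the fold on this scale. When shSCR replicate 3 was left out, these thresholds were met by 5 higher kinesins (KIF11, KIF14, KIF18B, KIF20B and KIF7), beside 3.99% of all genes, and by the same 2 lower ones, beside 6.13%. KIF7 had a shSCR mean of 0.861 FPKM and reached the filter through its shPCAT1 mean of 1.38 FPKM, so its count carries no weight. When samples were scaled to a common upper quartile, 7 kinesins were higher and 2 lower by the same thresholds, and 653 of all genes were higher and 706 lower, against 503 and 839 without scaling.

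The values of the 2 groups did not overlap for 17 of the fitted kinesins. Of the 30 kinesins fitted, 11 lay entirely higher in shPCAT1 cells (36.7%), beside 14.8% of all genes. They were the mitotic genes KIF11, KIF14, KIF15, KIF18A, KIF20B and KIF23, the transport genes KIF3A and KIF5B, and KIF21A, KIF2A and KIF9. A further 6 lay entirely lower (20%), beside 17.7% of all genes. Among these only KIF22 is mitotic, and the others were KIF13B, KIF1A, KIF1B, KIFC2 and KIF24.

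**Figure D2:**
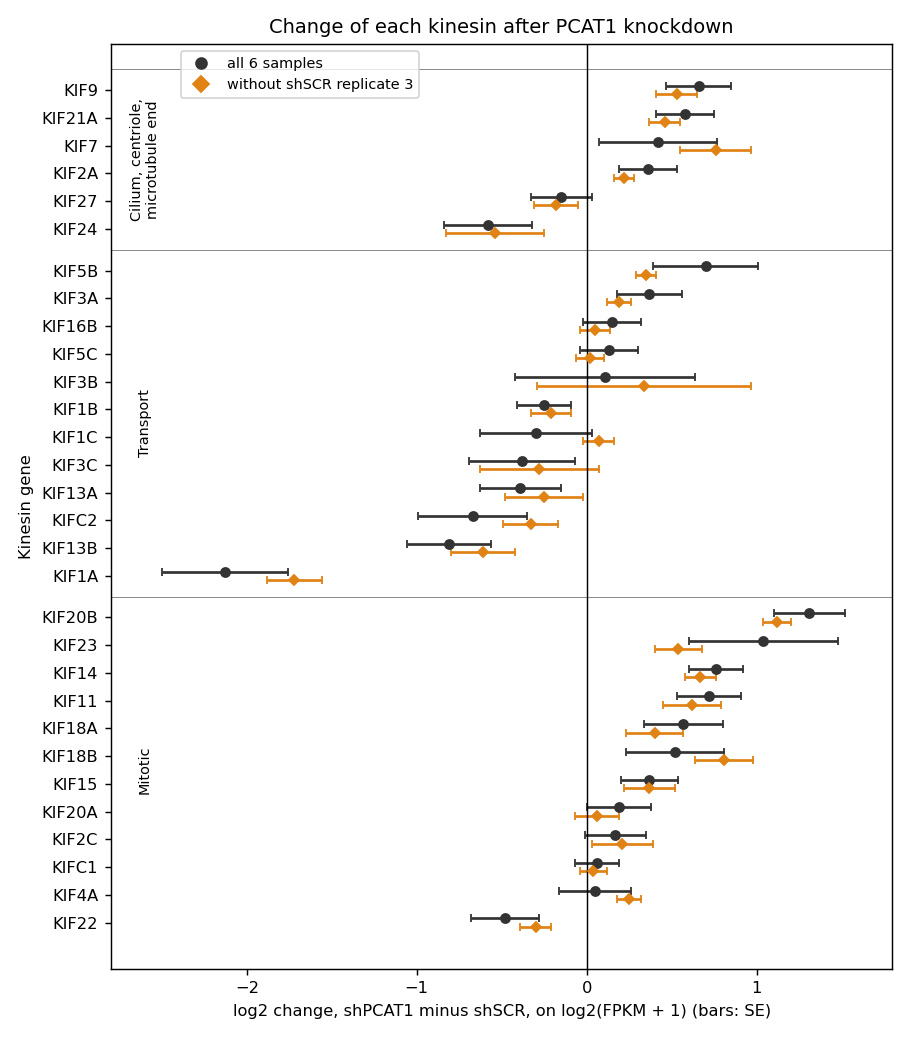
Log2 change of the 30 fitted kinesin genes (shPCAT1 minus shSCR, with bars for the SE) with all 6 samples (black circles) and without shSCR replicate 3 (orange diamonds), grouped by class. All mitotic genes but KIF22 lie to the right of 0 in both fits, and KIF1A lies farthest to the left at -2.13 and -1.72.

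KIF20B, a motor needed for the last step of cytokinesis, had the highest log2 change of the 30 fitted genes with a KIF or KIFC symbol. The gene lies on chromosome 10 (hg19, 91461367 to 91534696) and its main transcript has 33 exons. It measured 7.05, 6.43 and 4.17 FPKM in shSCR cells and 16.4, 15.3 and 15.7 FPKM in shPCAT1 cells. Every shPCAT1 sample was more than double every shSCR sample, and shSCR replicate 3 was the lowest of the controls. The means were 5.88 ± 1.52 and 15.8 ± 0.571 FPKM (SD, n = 3), a ratio of 2.68. The log2 change was 1.31 (SE 0.21) with a limma adjusted p of 0.06. Without shSCR replicate 3 it was 1.12 (SE 0.08) with an adjusted p of 0.0131, and KIF20B passed the threshold.

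KIF14, which acts with citron kinase at the midbody (chromosome 1, 200520628 to 200589862), measured 5.86, 5.15 and 4.42 FPKM in shSCR cells and 9.57, 9.68 and 8.87 FPKM in shPCAT1 cells. The groups were well apart and each was tight. The means were 5.14 ± 0.722 and 9.37 ± 0.437 FPKM (SD, n = 3), and the log2 change was 0.76 (SE 0.16, limma adjusted p = 0.104). Without shSCR replicate 3 the change was 0.67 (SE 0.09) and the adjusted p of limma was 0.0297, past the threshold.

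KIF11, the motor that pushes the spindle poles apart and the target of several antimitotic compounds (chromosome 10, 94353043 to 94415152), was at 18.4, 12.6 and 12.2 FPKM in shSCR cells and at 25, 23 and 23.7 FPKM in shPCAT1 cells. The highest control was shSCR replicate 1, and it stayed below every shPCAT1 sample. The means were 14.4 ± 3.49 and 23.9 ± 1.02 FPKM (SD, n = 3), with a log2 change of 0.72 (SE 0.19, limma adjusted p = 0.166), and of 0.62 (SE 0.17, adjusted p = 0.109) without shSCR replicate 3. KIF15, which can take over part of the work of KIF11, measured 4.82, 5.14 and 4.99 FPKM against 7.74, 6.9 and 5.62 FPKM, with a log2 change of 0.37 both with and without shSCR replicate 3 (adjusted p of 0.329 and 0.205 in limma).

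KIF18A, which dampens the oscillations of chromosomes at the spindle equator, gave 3.83, 2.55 and 1.88 FPKM in shSCR cells and 4.6, 4.6 and 4.19 FPKM in shPCAT1 cells. These groups did not overlap, and shSCR replicate 3 was again the lowest. Its log2 change was 0.57 (SE 0.23, limma adjusted p = 0.282), and 0.40 (SE 0.17) without that library.

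KIF22, a chromosome-bound motor that pushes chromosome arms away from the poles, was the most abundant mitotic kinesin and the only one with a log2 change below 0. It measured 66.3, 70.6 and 99.3 FPKM in shSCR cells and 54.9, 51 and 60.6 FPKM in shPCAT1 cells. All shPCAT1 samples were below all controls, and shSCR replicate 3 was the highest. The change was -0.48 (SE 0.20, limma adjusted p = 0.288) and -0.30 without that replicate.

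KIF2C, which takes apart microtubule ends at the centromere, was at 34.7, 23.4 and 30.7 FPKM in shSCR cells and 32.6, 32.2 and 34.6 FPKM in shPCAT1 cells. KIFC1, a motor that walks to the minus end and focuses the poles, was at 24.7, 25.2 and 24 FPKM and at 27, 24.1 and 25.9 FPKM in the same order. Both genes overlapped between the groups, with log2 changes of 0.17 (SE 0.18) and 0.06 (SE 0.13), and of 0.21 and 0.04 without shSCR replicate 3. KIF20A, which brings the chromosomal passenger complex to the midzone, also overlapped, at 18 ± 3.29 against 20.5 ± 2.33 FPKM (SD, n = 3).

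Further mitotic members were chosen for description after their values were seen, because 1 library set their spread. KIF23, a subunit of centralspindlin, measured 6.63, 8.49 and 1.98 FPKM in shSCR cells and 12.3, 10.3 and 11.4 FPKM in shPCAT1 cells. Its log2 change was 1.04 (SE 0.44) with all samples and 0.54 (SE 0.14) without shSCR replicate 3. KIF18B, which shortens astral microtubules, ran the other way, at 6.64, 9.97 and 15.6 FPKM in shSCR cells and 14.8, 14.9 and 15.5 FPKM in shPCAT1 cells. Here shSCR replicate 3 lay at the level of the shPCAT1 samples, and the change was 0.52 (SE 0.29) with it and 0.81 (SE 0.17, limma adjusted p = 0.0681) without it. KIF4A, a chromosome-bound motor of the midzone, gave 13.8, 13.7 and 21.6 FPKM against 16, 16.7 and 17.1 FPKM, a change of 0.05 that became 0.25 without that library. KIF4A has a near-identical intronless copy, KIF4B, and reads of the pair may not be separable, so its level is uncertain.

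On the log2 scale KIF1A was the fitted kinesin with the widest difference between the groups and the only member called lower without shSCR replicate 3. It is a fast motor that carries precursors of synaptic vesicles and dense-core vesicles in neurons, and its gene spans 241653181 to 241759637 of chromosome 2. It measured 34.2, 24.5 and 68.7 FPKM in shSCR cells and 8.23, 7.76 and 8.28 FPKM in shPCAT1 cells. The 3 shPCAT1 samples were nearly equal, the controls were widely spread, and the lowest control was still far above every shPCAT1 sample. The means were 42.5 ± 23.2 and 8.09 ± 0.29 FPKM (SD, n = 3), a ratio of 0.191. The ratio was 0.276 when shSCR replicate 3 was left out. The log2 change was -2.13 (SE 0.37) with a limma adjusted p of 0.0752 over 6 samples, and -1.72 (SE 0.16) with an adjusted p of 0.0172 over 5. In shSCR cells KIF1A was the fourth-highest kinesin by mean, and the value after knockdown was near those of KIF9 and KIF14.

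KIF5B, the heavy chain of the conventional kinesin found in most tissues, had the highest mean of all kinesins over the 6 samples (chromosome 10, 32297938 to 32345359). It measured 67.4, 68.6 and 31.9 FPKM in shSCR cells and 83.2, 89.1 and 88.2 FPKM in shPCAT1 cells. The controls were in 2 levels, with shSCR replicate 3 at less than 50% of the others, and all of them lay below the shPCAT1 samples. The log2 change was 0.70 (SE 0.31, limma adjusted p = 0.318) with that library and 0.35 (SE 0.06, adjusted p = 0.0429) without it. The size of the KIF5B difference thus came to 1.55 as a ratio of means with all samples and to 1.28 without shSCR replicate 3.

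KIF13B, which carries phosphoinositide-bound cargo to the cell edge, was at 6.8, 4.5 and 9.01 FPKM in shSCR cells and 3.57, 3.37 and 2.98 FPKM in shPCAT1 cells. The groups did not overlap, and the ratio of means was 0.489 with a log2 change of -0.81 (SE 0.25, limma adjusted p = 0.204), and -0.61 (SE 0.19) without shSCR replicate 3. KIFC2, a motor best known from mouse neurons, measured 12.9, 11.5 and 25.6 FPKM against 7.79, 10.5 and 10.5 FPKM. Its change was -0.67 (SE 0.32) with all samples and -0.33 (SE 0.16) without shSCR replicate 3, the highest of the controls. KIF1C, which moves integrin-bearing vesicles, was at 30.7, 32.3 and 69.6 FPKM in shSCR cells and 33.4, 30.6 and 35.7 FPKM in shPCAT1 cells. Its change of -0.30 (SE 0.33) turned to 0.07 (SE 0.09) when that library was left out.

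KIF1A and KIF1C were both near 70 FPKM in shSCR replicate 3, but only KIF1A stayed lower in shPCAT1 cells when compared with shSCR replicates 1 and 2. KIF3A, a motor of ciliary transport, was at 9.84 ± 2.12 FPKM in shSCR cells and 12.8 ± 0.433 FPKM in shPCAT1 cells. Its partner KIF3B split within both groups, at 10.4, 29.8 and 29.5 FPKM and at 29.9, 12.4 and 31.6 FPKM, so that no difference between groups could be read. KIF1B, KIF5C, KIF13A, KIF16B and KIF3C had log2 changes from -0.39 to 0.15.

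Among the kinesins of the cilium, the centriole and the microtubule end, KIF9, which acts in motile cilia, met the fold and unadjusted p rule with all samples. It measured 6.6, 6.58 and 4.85 FPKM in shSCR cells and 9.1, 11.6 and 9.45 FPKM in shPCAT1 cells. All shPCAT1 samples were above all controls, and the log2 change was 0.66 (SE 0.19, limma adjusted p = 0.177), and 0.53 (SE 0.12) without shSCR replicate 3, where the rule was no longer met. Most of this signal came from short isoforms of the gene: KIF9-004, with 3 exons and 633 bases, had a mean of 4.44 FPKM in shSCR cells and 5.95 FPKM in shPCAT1 cells. The isoform KIF9-201, which spans the gene, was at means of 0.505 and 0.4 FPKM. It overlapped between the groups and was below the filter of 1 FPKM, so no direction can be read for it. Taken by its highest transcript alone, KIF9 had a change of 0.32 (SE 0.28) and did not meet the rule. KIF21A, which halts microtubule growth at the cell cortex, had a change of 0.58 (SE 0.17) and KIF2A, a microtubule depolymerase, one of 0.36 (SE 0.17). KIF24, a centriolar motor that restrains cilium formation, was at 3.24 ± 0.438 FPKM in shSCR cells and 1.91 ± 0.811 FPKM in shPCAT1 cells. KIF7, the kinesin of Hedgehog signaling in the cilium, and KIF27, its relative, were near 1 FPKM. KIF7 measured 0.315, 0.457 and 1.81 FPKM in shSCR cells and 0.901, 1.62 and 1.61 FPKM in shPCAT1 cells. KIF25, a centrosomal motor that did not reach the filter, was at 1.71, 1.35 and 0.179 FPKM in shSCR cells, at 0.124 FPKM in shPCAT1 replicate 1, and was listed at 0 in the other two.

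At the transcript level 47 of the 63 kinesin transcripts could be fitted, and 0 reached an adjusted p of 0.05 in limma, where 0.0586% of all transcripts were higher and 0.0391% lower. The fold and unadjusted p rule was met by 4 higher transcripts (8.51%), beside 4.24% of all transcripts, and by 2 lower transcripts (4.26%), beside 4.62%. These were KIF11-001, KIF14-001, KIF20B-001 and KIF21A-008, and KIF1A-001 and KIF13B-001. KIF1A-001 held most of the gene's signal, at 32.5, 22.9 and 65.6 FPKM in shSCR cells and 7.53, 7.48 and 8.11 FPKM in shPCAT1 cells, and its log2 change was -2.11 with a limma adjusted p of 0.218. The KIF20B isoforms were divided differently in shSCR replicate 3. There KIF20B-001 was at 0.232 FPKM and KIF20B-003 at 3.94 FPKM, whereas KIF20B-001 was the higher isoform at 5.19 to 6.56 FPKM in the other controls and at 12.8 to 14.2 FPKM in shPCAT1 cells. The KIF23 isoforms KIF23-001 and KIF23-003 were listed at 0 in shSCR replicate 3 and measured 2.64 to 3.33 FPKM in the other controls.

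The summed FPKM of a class weighs its abundant members, and it showed less than the medians. The 12 mitotic genes summed to 214, 201 and 235 FPKM in shSCR cells and to 244, 228 and 242 FPKM in shPCAT1 cells. The groups overlapped, since shSCR replicate 3 lay above shPCAT1 replicate 2. The transport genes summed to 212, 226 and 283 FPKM in shSCR cells and to 217, 203 and 228 FPKM in shPCAT1 cells. Mitotic genes made up 45.6%, 42.7% and 42.7% of all kinesin FPKM in shSCR cells and 47.7%, 47.1% and 46.4% in shPCAT1 cells, which did not overlap. The total includes the transport gene KIF1A, at 34.2, 24.5 and 68.7 FPKM in shSCR cells and 8.23, 7.76 and 8.28 FPKM in shPCAT1 cells. Its lower value by itself raises the mitotic share, so the gap between the groups cannot be read as a rise of the mitotic genes. A share without KIF1A was not computed. KIF5B alone took 14.4%, 14.6% and 5.78% in shSCR cells and 16.3%, 18.4% and 16.9% in shPCAT1 cells.

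**Figure D3:**
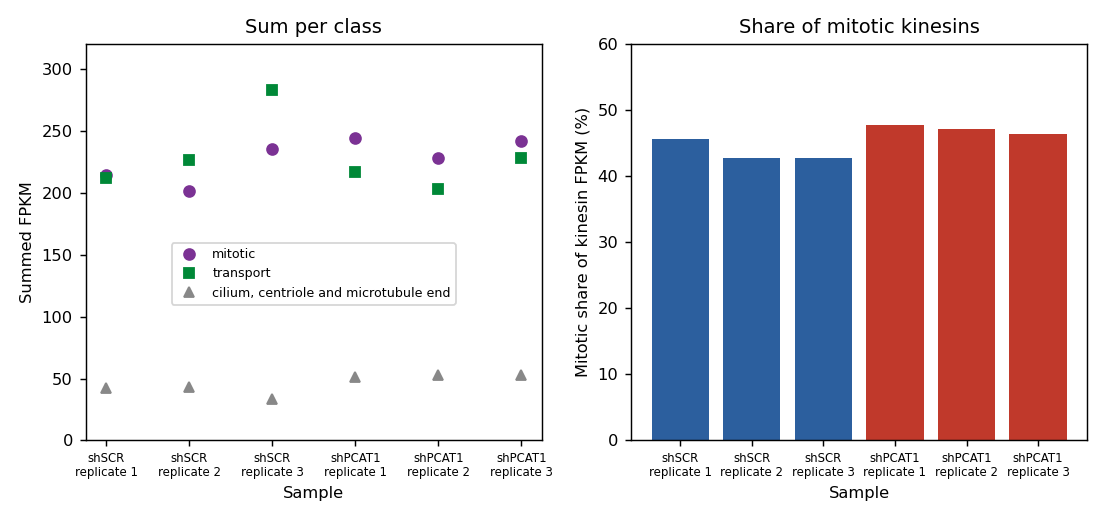
Left, summed FPKM of the kinesin classes in each of the 6 samples. Right, percentage of the kinesin FPKM that belonged to the 12 mitotic genes, at 42.7% to 45.6% in shSCR samples (blue bars) and 46.4% to 47.7% in shPCAT1 samples (red bars), with the axis from 0. The total includes KIF1A, whose lower value in shPCAT1 samples by itself raises this percentage, so the gap cannot be read as a rise of mitotic genes.

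The kinesin changes went with the GC content of the transcripts. Across the 30 genes, which share the same 6 libraries, the log2 change against the GC content of the highest transcript had a Spearman rho of -0.642, and over 10748 genes the rho was -0.532. Mitotic kinesins had a median GC content of 43.6% and transport kinesins of 48.5%. Within the controls, the gap of shSCR replicate 3 from the mean of replicates 1 and 2 had a rho of 0.79 with GC content in the same 30 genes. Without that library the rho of the change with GC content was -0.461. KIF20B had the lowest GC content of the fitted members, at 34.2%, and KIF1A was among the highest at 61%. After each sample was corrected for its trend on GC content, the log2 change was 0.84 (SE 0.11, limma adjusted p = 0.0358) for KIF20B and -1.73 (SE 0.20, adjusted p = 0.0259) for KIF1A, and both passed the threshold, beside 0.521% of all genes called higher and 0.772% called lower. KIF11, KIF14 and KIF13B no longer met the fold and unadjusted p rule after correction, with changes of 0.45, 0.46 and -0.58. That rule was then met by KIF18B, KIF20B, KIF7 and KIF9, beside 3.47% of all genes higher, and by KIF1A, beside 5.09% lower. Of these, KIF7 had reached the filter through its shPCAT1 values. The corrected medians were 0.32 for mitotic and -0.09 for transport genes. With the correction and without shSCR replicate 3 they were 0.26 and -0.09, and KIF14 and KIF20B were called higher, beside 3.01% of all genes, and KIF1A lower, beside 3.18%. KIF22 moved from -0.48 to -0.15 with the correction, and KIF18B from 0.52 to 0.85. KIF18A moved from 0.57 to 0.17, KIF15 from 0.37 to 0.16, KIF3A from 0.37 to 0.04 and KIFC2 from -0.67 to -0.11. KIF5B, called without shSCR replicate 3, lost the call when the correction was added, at 0.23 with a limma adjusted p of 0.122. What part GC content and shSCR replicate 3 had in the uncorrected values was not tested beyond these fits.

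**Figure D4:**
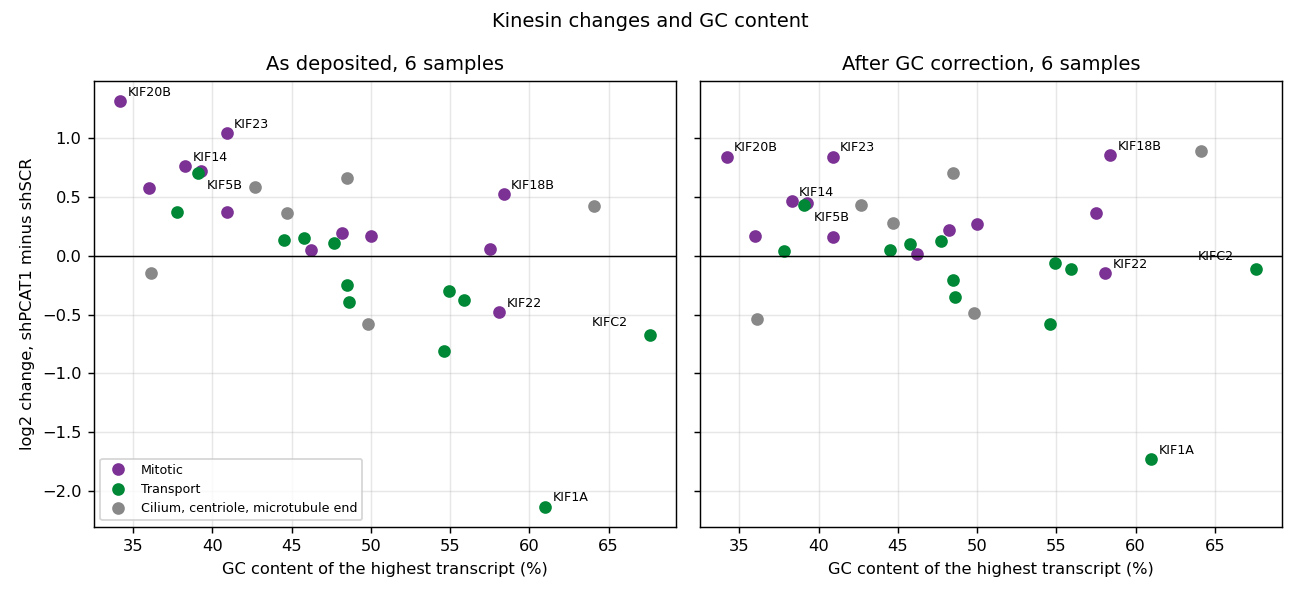
Log2 change of the 30 fitted kinesin genes (shPCAT1 minus shSCR) against the GC content of the highest transcript in percent, with the values as deposited (left) and after correction of each sample for its GC trend (right). The fall of the points from left to right at a rho of -0.642 becomes -0.267 after correction across these genes, where KIF20B lies at 0.84 and KIF1A at -1.73.

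Set beside the promoter letters shown above, the 10 kinesins with TTTGAA had a median log2 change of 0.64, with 10 of 10 above 0 (0.05 to 1.31), and the 17 fitted kinesins without it had a median of 0.13, with 10 above 0. Over all 10825 genes fitted, 4960 were above 0, and the changes of all fitted genes with TTTGAA were not computed. Of the 10 kinesins with the motif 9 are mitotic, so this division largely repeats that of the classes. The corresponding medians were 0.47 and 0.06 without shSCR replicate 3, and 0.44 and 0.05 after GC correction. The median GC content of the transcripts was 40.1% and 48.5%, so the letters and the GC content went together. KIF20A, KIF2C and KIF22, the mitotic genes without TTTGAA, had changes of 0.19, 0.17 and -0.48. KIF4A and KIFC1, the lowest of the mitotic genes with it, had changes of 0.05 and 0.06, below those of KIF20A and KIF2C. KIF5B, the only transport gene with TTTGAA, had a change of 0.70, which was 0.35 without shSCR replicate 3 and 0.43 after GC correction.

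Of 23 light chains, adaptors and partners of kinesins that were fitted, 1 was called higher with all samples, beside 0.333% of all genes, and 0 lower. The median change was -0.04 with all samples and turned to 0.04 without shSCR replicate 3. The gene was CENPE, the kinetochore motor that brings late chromosomes to the spindle equator. It measured 4.01, 3.54 and 2.48 FPKM in shSCR cells and 12, 11.1 and 12.3 FPKM in shPCAT1 cells, with no overlap. The means were 3.34 ± 0.783 and 11.8 ± 0.589 FPKM (SD, n = 3), with a log2 change of 1.57 (SE 0.19, limma adjusted p = 0.0343). Without shSCR replicate 3, CENPE, CCP110 and RAB3GAP2 were called higher, 3 of 23 beside 3.63% of all genes. CCP110, a centriole cap that KIF24 works with, was at 7.72 ± 0.355 and 12.3 ± 0.376 FPKM, and its log2 change was 0.61 (limma adjusted p = 0.119) with all samples and 0.58 (adjusted p = 0.0259) without that library. RAB3GAP2, the partner of RAB3GAP1 in a Rab exchange factor, was at 6.56 ± 0.182 and 10.5 ± 0.578 FPKM. It was in the list of partners, but no tie of it to a kinesin was examined here.

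Cytoplasmic dynein carries cargo in the opposite direction to most kinesins. Of its 28 fitted subunits, dynactin members and adaptors, 0 were called with all samples, and the median change was 0.05. Without shSCR replicate 3, the cargo adaptors BICD1 and HOOK1 were called higher, 2 of 28 beside 3.63% of all genes. BICD1 was at 4.08 ± 0.709 FPKM in shSCR cells and 8.15 ± 0.913 FPKM in shPCAT1 cells, and HOOK1 at 18.6 ± 4.81 and 30 ± 1.39 FPKM. HOOK1 lost the call when GC correction was added, at 0.28 with a limma adjusted p of 0.0934. In that fit BICD1 and the dynactin member ACTR1B were called higher, 2 of 28 beside 3.01% of all genes. ACTR1B was at 0.44 there (limma adjusted p = 0.049) and at -0.15 with all samples and no correction. ACTR1A, the filament subunit of dynactin, was at 44.2 ± 12.5 and 20.5 ± 9.93 FPKM with a limma adjusted p of 0.215.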

How the data were processed

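RNA-seq of 6 LNCaP-AI samples was used, 3 shSCR and 3 shPCAT1, grouped by the labels. The authors made stranded poly(A) libraries and deposited one table of FPKM per transcript, computed by the authors with Ballgown on hg19. The submitters' processing notes name HISAT2 2.0.4, whereas the study's methods name a different aligner. FPKM keeps no read counts, so no count test was run and the depth is unknown. The deposited table also holds the authors' log2 fold changes, p-values, q-values and group means, which were not used.

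FPKM of transcripts was summed per gene. Genes whose mean reached 1 FPKM were fitted on log2(FPKM + 1) with limma 3.58.1 (R 4.3.3, eBayes with trend and robust). The p-values were adjusted by Benjamini-Hochberg over all genes fitted. The fit was tested on simulated data that held neither an outlying library nor a GC trend, so that test does not bear on either. The log scale with this pseudocount understates the changes of low genes. The study named DEGseq. Class medians had no test. Kinesin transcripts were fitted in the same way. Coordinates are hg19, as deposited. Exons and GC content (30 of 30 fitted kinesins, 10748 of 10825 genes) came from GENCODE transcripts lifted to that build, and promoters from RefSeq (GRCh38.p14).

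The members, classes and other lists were chosen with earlier results of these data known. Values in every sample were given for members called with all samples or without shSCR replicate 3, members at a fold of at least 1.5 with an unadjusted p of at most 0.05, the 4 of smallest p in the mitotic and in the transport class, and the 6 of highest mean FPKM. Partner and dynein genes were named if called or among the 3 of smallest p. Alternatives comprised a smaller pseudocount (0.1), fitting every gene, a minimum of 5 FPKM, upper quartile and quantile scaling, plain eBayes, the highest transcript per gene, a GC correction, a replicate block, other class memberships and leaving out each sample.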

Additional observations from a re-analysis of the deposited data

How the results depend on the processing

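With all samples and limma, 0 kinesin genes were called, and 0 to 4 when each sample was left out in turn, with 4 without shSCR replicate 3 (KIF14, KIF1A, KIF20B and KIF5B). Without that library 3.63% of all genes were called higher and 4.4% lower. GC correction gave 2, beside 0.521% of all genes higher and 0.772% lower. GC correction with shSCR replicate 3 left out gave 3, beside 3.01% of all genes higher and 3.18% lower. By the fold of 1.5 and unadjusted p rule, 6 kinesins passed with all samples and 6 to 11 with a sample left out, 11 being the count without shSCR replicate 2. It was 5 with GC correction (KIF11, KIF13B and KIF14 lost), beside 3.47% of all genes higher and 5.09% lower. With GC correction and shSCR replicate 3 left out it was 4, beside 398 of 10748 genes higher and 569 lower. By the highest transcript it was 5 (KIF9 lost), and with a pseudocount of 0.1 it was 8 (KIF18A and KIF21A added). Shares of all genes were not computed for leaving out any other sample, the highest transcript, the smaller pseudocount or the replicate block. Those kinesin counts therefore have no background to be set against. For kinesin transcripts the count was 0 under every alternative run. The mitotic minus transport difference of 0.72 was 0.48 to 0.80 with a sample left out (0.48 without shSCR replicate 3), 0.40 with GC correction and 0.36 with both, and it kept its direction in all alternatives run. The adjusted p over the alternatives ran from 0.0131 to 0.356 for KIF20B, 0.0172 to 0.289 for KIF1A, 0.0297 to 0.405 for KIF14 and 0.0429 to 0.576 for KIF5B. KIF1C changed direction in 2 of its 16 alternatives, to 0.07 and 0.17, both without shSCR replicate 3. The cause of these shifts was not tested. With a replicate block, 0 kinesin genes were called and 6 met the fold rule. Deviations of same-numbered samples correlated at -0.0238, -0.0142 and 0.0209, so the numbers were not taken to pair the samples. FPKM without counts limits what can be said of the low genes KIF7, KIF25 and KIF27. KIF7 is included in the fold rule counts without shSCR replicate 3 and with GC correction.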
